A study of Mus musculus with 6 samples.

Results

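Accessibility at the genes of the cyclin-dependent kinase inhibitors was examined in neural stem cell (NSC) cultures of the adult mouse subependymal zone (SEZ). The 7 genes are Cdkn1a, Cdkn1b and Cdkn1c of the Cip/Kip family and Cdkn2a, Cdkn2b, Cdkn2c and Cdkn2d of the Ink4 family, out of 21938 protein-coding genes of the annotation (GENCODE M21, GRCm38). For each of them, the peaks of 6 ATAC-seq libraries that overlapped the gene body extended by 20 kb on each side were taken. Peaks of different libraries that shared at least 1 bp were merged, which gave 119719 regions in the genome and 39 regions in the 7 windows. The windows of Cdkn2a and Cdkn2b overlap, so together the windows cover 303 kb.

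ATAC-seq uses a transposase that cuts and tags open DNA, and a peak marks a stretch with more cuts than the local background. All cultures came from mice 10 weeks old that carried Srr2 del/del, a CRISPR-Cas9 deletion of the SRR2 enhancer downstream of Sox2. Proliferating cultures (PROLIF, 2 days in vitro, DIV) were grown with mitogen, and early differentiating cultures (DIFF, 2+1 DIV) had 2 days with FGF followed by 1 day without mitogens in medium with 2% fetal bovine serum. Replicates 1, 2 and 4 of each state give 3 libraries against 3. Wild-type cultures were not analysed here. The values describe a change of state within the mutant, in which mitogen withdrawal, added serum and the extra day in culture cannot be told apart. The deletion is present in every cell of the mouse line, 2 founder strains were bred for the study, and the labels do not give the strain of each culture.

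Cyclin-dependent kinases drive the cell cycle when bound to a cyclin, and the inhibitors brake them. Cip/Kip proteins bind complexes of cyclin with kinase and mainly restrain CDK2, while Ink4 proteins bind CDK4 and CDK6 and keep them from D-type cyclins. Less CDK activity leaves the retinoblastoma protein bound to E2F factors, which holds back the genes of DNA synthesis. In neural progenitors these proteins are known for controlling cell cycle exit and the self-renewal of stem cells.

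The lists held from 59792 to 82552 peaks in PROLIF and from 70578 to 87728 in DIFF on the assembled chromosomes. The background pileup, the number of reads stacked by chance at a position and a stand-in for depth, lay between 2.85 and 2.97 reads in PROLIF and was 3.63, 2.96 and 6.01 reads in DIFF replicates 1, 2 and 4. DIFF replicate 4 was therefore the deepest library, and its peaks at percentile 1 held 16 reads at the summit where those of the other libraries held 10 to 12. No peak was called from 3 to 5 kb downstream of the Sox2 start site in 5 libraries and 1 was called in DIFF replicate 4, and the deletion itself was not mapped. All 7 markers of neural stem and progenitor cells had a promoter peak in every library, while Sox10 of oligodendrocytes, Dcx of neurons, Cx3cr1 of microglia and Cldn5, Cdh5 and Tek of endothelial cells had none. Peaks in every library were found for 2 of 3 oligodendrocyte markers, 1 of 3 neuronal, 2 of 5 microglial and 1 of 5 endothelial markers. Pecam1 of endothelial cells had one in the 3 PROLIF libraries only, and P2ry12 of microglia ranked from 69.7 to 78.1 in PROLIF and from 56.8 to 57.5 in DIFF. The part of other cell types in the results was not tested. Bulk libraries cannot separate fewer open cells from less opening per cell.

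To compare libraries of different depth, each peak was given its percentile within its own list, ranked by the −log10 p of the peak caller, where 100 is the strongest peak. This is a rank and not an amount of open DNA. It also depends on the length of the list, since weak peaks added to a list raise the percentile of its stronger peaks. Near 100 a large difference in −log10 p moves the percentile little. In PROLIF replicate 1, for example, a −log10 p of 118 ranked at 95.5 and one of 169 at 98.3.

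All 7 inhibitors had a promoter peak, meaning a peak within 3 kb of an annotated start site, in all 6 libraries. Over all protein-coding genes this share was 64.4%. In both states the strongest promoter was that of Cdkn2d, which encodes p19INK4d, with percentiles between 98.4 and 99.5. It was followed by Cdkn2a, from 96.8 to 99.1, and by Cdkn2b, from 90.0 to 97.7. Cdkn1b followed, from 93.5 to 95.5, and then Cdkn2c, from 87.4 to 95. Neighbours among these 5 genes overlapped in their ranges. Cdkn1a, from 48.5 to 80.3, and Cdkn1c, from 35.3 to 83.2, overlapped each other and lay below the other 5 in every library. By its median, the Cdkn2d promoter stood above 97.0% of the promoters found in all 6 libraries, and the Cdkn1c promoter above 7.59%.

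With the lists in full, ranked by −log10 p, the promoter percentiles of the states were apart for no inhibitor. Over all promoters found in all 6 libraries, 4.79% ranked higher in every PROLIF library and 26.0% higher in every DIFF library. The largest differences were those of Cdkn1a, 56.4 ± 11.9 in PROLIF and 72.3 ± 7.19 in DIFF (SD, n = 3; two-sided exact permutation p = 0.200, adjusted p = 0.429 over all promoters), and of Cdkn1c, 51.8 ± 20.3 and 65.4 ± 15.5 (SD, n = 3; exact permutation p = 0.400, adjusted p = 0.600). With 3 libraries against 3 the smallest possible p is 0.1, and after Benjamini-Hochberg adjustment the smallest was 0.325 over promoters and 0.305 over regions, so no single call could pass 0.05. Without PROLIF replicate 1, which ranked highest of its state at 6 of these promoters, 4 of the 7 promoters (Cdkn1a, Cdkn1c, Cdkn2a and Cdkn2d) ranked apart, each higher in DIFF, a call that 47.8% of all promoters also met in that setting.

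**Figure D1:**
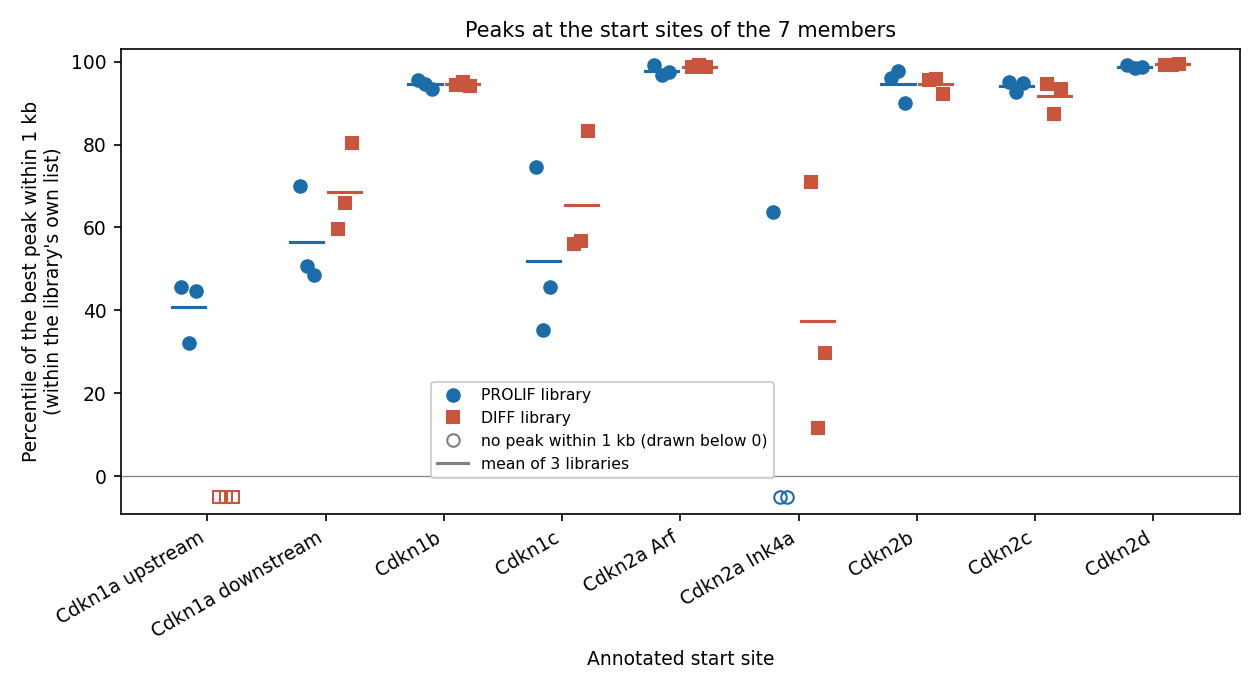
Percentile (y axis, 0 to 100) of the best peak within 1 kb of 9 of the annotated start sites (x axis), the main ones of each gene, with PROLIF libraries as circles, DIFF libraries as squares, and bars for the mean of 3 libraries. Open symbols below 0 mark libraries without a peak, and among the sites drawn these are all 3 DIFF libraries at the upstream start site of Cdkn1a and 2 PROLIF libraries at the Ink4a start site of Cdkn2a.

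In the windows, PROLIF libraries had 34, 30 and 25 peaks and DIFF libraries 28, 24 and 32 peaks for replicates 1, 2 and 4. The means of 29.7 ± 4.51 and 28.0 ± 4.00 (SD, n = 3) differed by less than the spread between libraries (exact permutation p = 0.700), and the sign changed without PROLIF replicate 1, at 0.50, or without DIFF replicate 2, at 0.333. Peaks covered 16.5 ± 1.34 kb in PROLIF and 17.4 ± 1.67 kb in DIFF (SD, n = 3; exact permutation p = 0.50). Without DIFF replicate 4 this difference shrank to 0.00217 kb. Per 1000 peaks of its list, each PROLIF library had more peaks in the windows (0.412, 0.451 and 0.418) than any DIFF library (0.394, 0.340 and 0.365; exact permutation p = 0.10, the smallest possible). This measure was added after the values were seen, and its denominator follows the length of the list. The data numbers inside the peak names fell into a low set (PROLIF 1 and 4, DIFF 1) and a high set (PROLIF 2, DIFF 2 and 4). What they mark is not stated. The difference per 1000 peaks was -0.0212 within the low set and -0.0990 within the high set.

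Of the 39 regions, 17 (43.6%) had a peak in all 6 libraries, against 33.5% of all regions. A peak in all 3 PROLIF and no DIFF library (PROLIF-only) was found at 1 region, where 1.79% of all regions were PROLIF-only. No region was DIFF-only, where 3.48% of all regions were. Among the 17 shared regions, 0 ranked higher in every PROLIF library (11.7% of all shared regions) and 2 ranked higher in every DIFF library (21.1%). The PROLIF-only region and both regions that ranked higher in DIFF belonged to the window of Cdkn1a. That window held the most regions, 13 of the 39 and 6 of the 17 shared ones. The shared member regions had a median difference of 3.34 points, DIFF minus PROLIF, beside 2.26 points for all shared regions. In the median, percentiles of shared regions thus lay somewhat higher in DIFF over the whole genome. The part of list length in this difference, and in the shares ranked higher in DIFF, was not tested.

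Leaving out 1 library moved several of these counts. PROLIF-only regions numbered 3 without PROLIF replicate 4 (3.58% of all regions) and 2 without DIFF replicate 2 (2.15%). DIFF-only regions numbered 1 without DIFF replicate 1 (5.98%) or DIFF replicate 2 (5.29%). Regions ranked higher in every DIFF library numbered 6 without PROLIF replicate 1, where 37.4% of all shared regions did, or without DIFF replicate 2, where 28.5% did.

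By position, 16 regions were within 3 kb of an inhibitor's start site, and 9 of them were found in all 6 libraries. Another 8 regions lay within 3 kb of start sites of other genes only, and 6 of these were shared by all libraries. Of the 15 regions over 3 kb from any start site, 2 were found in all 6 libraries. Over all regions of the genome, 52.6% of those within 3 kb of any start site and 25.3% of those farther away were found in all 6 libraries.

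**Figure D2:**
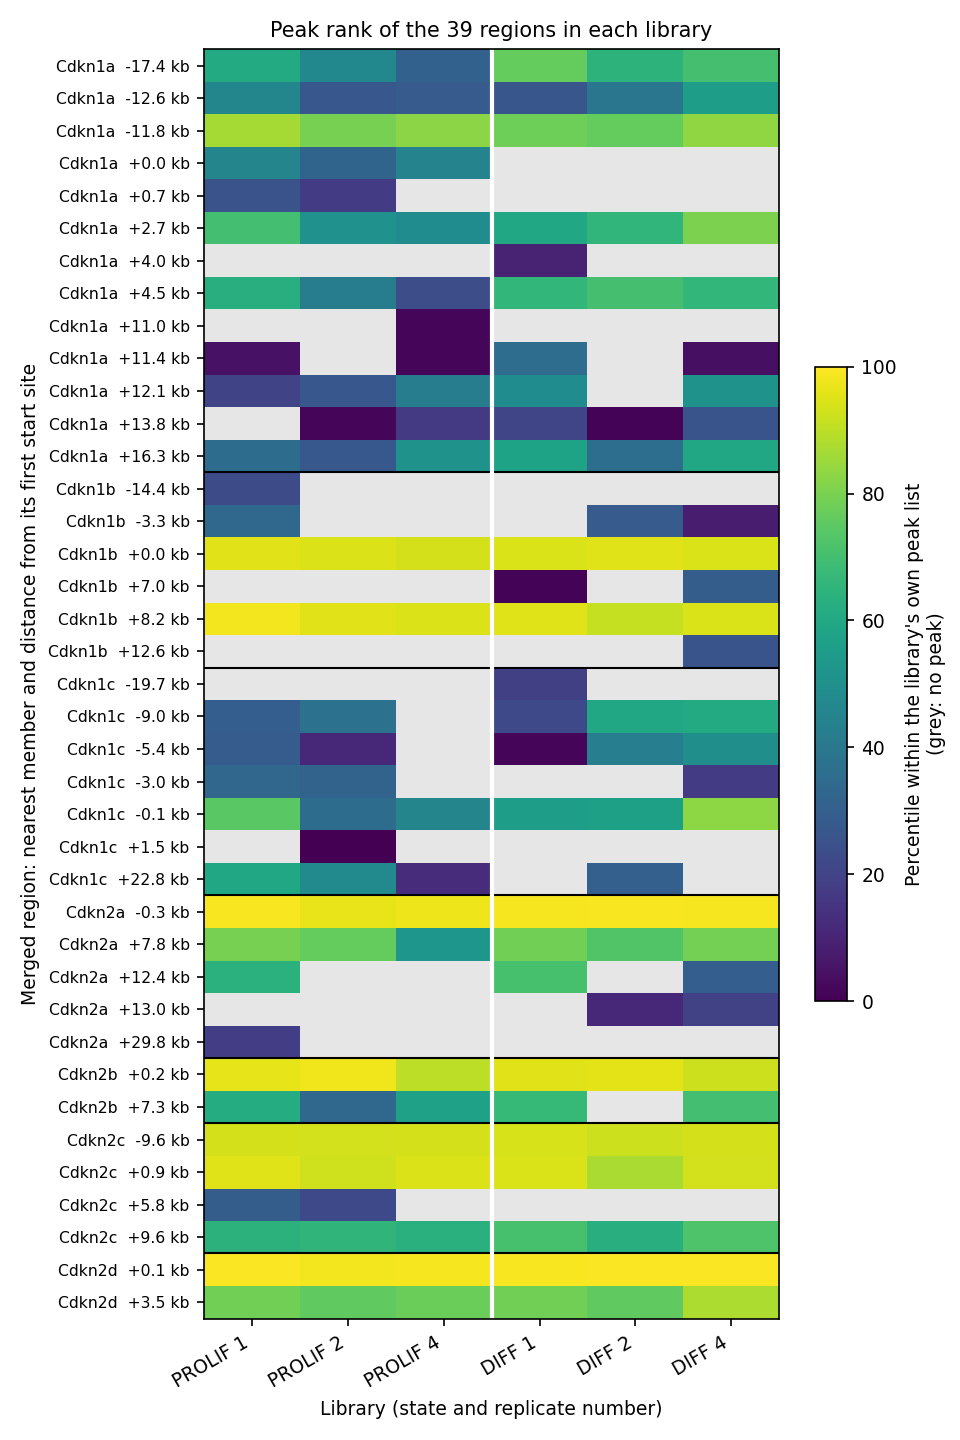
Percentile of the best peak within the library's own list (colour, 0 to 100, grey for no peak) for the 39 regions (rows, with the distance of the region's centre from the first start site of the member in kb) in the 6 libraries (columns). The row of Cdkn1a at its upstream start site is filled in the 3 PROLIF libraries only, and the rows at the first start site of Cdkn1b, Cdkn2a, Cdkn2b, Cdkn2c and Cdkn2d lie between 87.4 and 99.5 in both states.

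Cdkn1a (ENSMUSG00000023067.14) encodes p21, the inhibitor that p53 induces after DNA damage. It lies on the plus strand at chr17:29090976-29100727 and has an upstream start site at 29090976 and a downstream one at 29093769. Its window held 13 regions, or 26.1 per 100 kb, denser than 99.7% of the windows of protein-coding genes, whose median was 6.46 per 100 kb. By number, 91.8% of windows held fewer regions. In 5 of the 13 regions the bases around the summit were a tandem repeat, and without these 5 the window held 16.1 regions per 100 kb, above 94.1% of windows in which repeats were kept, a count added after the values were seen.

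The PROLIF-only region, chr17:29090823-29091223, covered the upstream start site. Its percentiles were 45.7, 32.2 and 44.7 in PROLIF replicates 1, 2 and 4, and its fold enrichment over background was 4.05, 3.59 and 4.09. The summits held 33, 25 and 28 reads and lay at positions -80, 15 and -8 relative to the start site. No DIFF library had a peak there, the deepest library, DIFF replicate 4, included. Where no peak was called, the DNA need not be closed, since the signal may lie below the caller's threshold. These were mid-list peaks, and 2 alternatives ended the call. Peaks of PROLIF replicates 2 and 4 covered 185 and 155 of the 401 bp, so neither counted when a cover of at least 50% was asked for, and none of the 3 was among the strongest 20000 peaks of its list.

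Directly downstream, chr17:29091426-29091828 in an exon of Cdkn1a had peaks in PROLIF replicates 1 and 2 at percentiles 25.5 and 17.2 and none in the other 4 libraries.

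The 200 bases before the upstream start site, chr17:29090776-29090975, are printed because they hold the only match to the p53 motif in any of the 7 windows. They were read from GRCm38 on the plus strand, 5′ to 3′, and capitals mark the motif.

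Cdkn1a upstream start site: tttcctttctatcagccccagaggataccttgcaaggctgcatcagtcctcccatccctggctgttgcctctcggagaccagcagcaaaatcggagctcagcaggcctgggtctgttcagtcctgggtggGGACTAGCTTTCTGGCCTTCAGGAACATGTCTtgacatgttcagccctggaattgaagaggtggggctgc

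The match, of 32 bases with its first base at position -70 from the start site, lay inside the PROLIF-only region. The p53 motif was searched by name, on both strands, as a pair of its decamers separated by at most 13 bp. Within 100 bp of the summit it was found in 99 of all regions (0.0827%), and in the same 200 bases it was found at 15 of 32817 RefSeq promoters of GRCm38 (0.0457%). A match is a description and not a bound site. The bases directly after the capitals, tgacatgttc, miss the decamer in their first base only and were left unmarked. Of the 99 regions with the motif, 6 (6.06%) were PROLIF-only, 1 (1.01%) was DIFF-only and 17 (17.2%) had a peak in all 6 libraries. Over all regions these shares were 1.79%, 3.48% and 33.5%. The PROLIF-only region of Cdkn1a is itself among the 99 and among the 6. This count of regions with the motif was added after the values were seen and was not tested.

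At the downstream start site of Cdkn1a, where the annotation also places an exon of AC167363.2, the region chr17:29093405-29093935 was found in every library. Percentiles were 70.1, 50.7 and 48.5 in PROLIF and 59.6, 65.9 and 80.3 in DIFF, so the states overlapped. Its pileup reached 55, 34 and 31 reads in PROLIF and 40, 46 and 88 reads in DIFF. The start of transcript Cdkn1a-203 at 29097900 had no peak within 1 kb in any library.

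The 2 member regions that ranked higher in every DIFF library lay in an intron of Cdkn1a and upstream of the gene. Both calls were lost among the strongest 20000 peaks and with a cover of at least 50%, and the upstream one lay outside a flank of 10 kb. In an intron of Cdkn1a, chr17:29095291-29095705 ranked at 62.8, 42.3 and 23.7 in PROLIF and at 66.2, 70.5 and 66.2 in DIFF. The difference of 24.7 points (exact permutation p = 0.10, adjusted p = 0.305 over all shared regions) was larger than at 94.7% of shared regions, and it was 23.0 points within the low set of data numbers and 26.0 within the high set. PROLIF replicate 1 lay close to the DIFF libraries, and PROLIF replicate 4 far below them.

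The stretch around its summit, chr17:29095525-29095625 on the plus strand of GRCm38, is printed because it carries the larger of the 2 rank differences and lies in an intron. Capitals mark a GC box (GGGCGG) and an AP-1 motif (TGACTCA or TGAGTCA), which were searched on both strands.

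Cdkn1a intronic region: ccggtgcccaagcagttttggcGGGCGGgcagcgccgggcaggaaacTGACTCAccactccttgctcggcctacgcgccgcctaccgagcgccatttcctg

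Within 100 bp of the summit, an AP-1 motif was found in 5.76% of all regions and in 2 of the 39 member regions. The second region, chr17:29073218-29073867, was centred at position -17434 from the upstream start site, over an exon and start site of Trp53cor1, a long non-coding RNA that p53 induces. It ranked at 61.2, 46.8 and 31.0 in PROLIF and at 76.4, 64.5 and 70.4 in DIFF, a difference of 24.1 points (exact permutation p = 0.10, adjusted p = 0.305). Within the low and the high set the difference was 30.3 and 20.7 points. Peaks there also covered 314, 210 and 210 bp in PROLIF and 650, 488 and 377 bp in DIFF, without overlap of the states. A nearer Trp53cor1 region, chr17:29078898-29079449, was the strongest of the window at percentiles 86.6, 79.6 and 82.6 in PROLIF and 77.9, 76.4 and 83.4 in DIFF, where the states overlapped.

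Downstream of the gene, 5 intergenic regions were centred between 11024 and 16344 bp from the upstream start site. One of them, chr17:29105842-29108798, spanned 2957 bp and was found in all libraries, at percentiles 35.2, 27.4 and 51.1 in PROLIF and 58.2, 36.2 and 60.1 in DIFF. The states overlapped. The stretch at its summit, chr17:29107497-29107597 on the plus strand, is printed because it is a tandem repeat, in which short reads can map to several places. The run agttgtag occurred 4 times there and 4 or 5 times, counting both strands, around the summit of each of the other 4 regions. The effect on these peaks was not tested.

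Cdkn1a downstream intergenic region: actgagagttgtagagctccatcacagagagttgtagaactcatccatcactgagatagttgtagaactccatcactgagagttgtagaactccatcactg

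**Figure D3:**
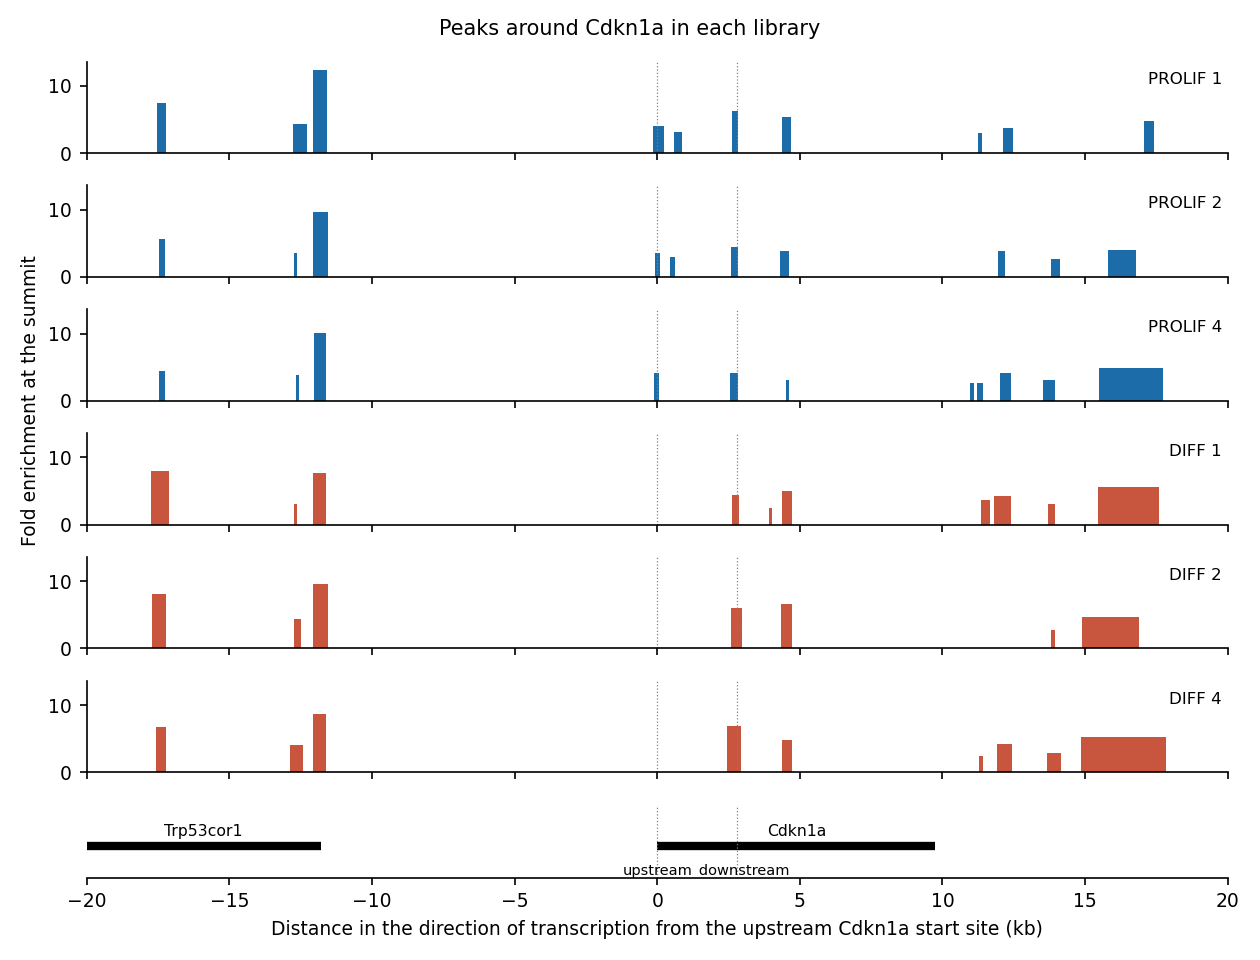
Best peak of each region (bars, drawn at their width) by distance in kb from the upstream Cdkn1a start site (x axis) and fold enrichment at the summit (y axis) in each library, with the gene bodies at the bottom and dotted lines at both start sites. Bars at 0 kb appear in the 3 PROLIF libraries (fold 4.05, 3.59 and 4.09) and in no DIFF library, while bars at the downstream start site appear in all 6.

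Cdkn1b (ENSMUSG00000003031.14, plus strand, chr6:134920401-134925513) encodes p27, which holds cells out of the cycle until the ubiquitin ligase subunit SKP2 marks it for degradation. Its promoter was the steadiest of the Cip/Kip family by percentile, on a part of the scale where ranks move little. Percentiles were 95.5, 94.7 and 93.5 in PROLIF and 94.3, 95 and 94.2 in DIFF, a difference of -0.107 points (exact permutation p = 1.00). The peaks reached fold enrichments between 9.81 and 13.1 and widths between 887 and 1107 bp. The 200 bases before its start site, chr6:134920201-134920400, are printed for contrast with the upstream promoter of Cdkn1a. They were read on the plus strand, and capitals mark TTGGCA (NFI), CCAAT and GGGCGG, each searched on both strands.

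Cdkn1b start site: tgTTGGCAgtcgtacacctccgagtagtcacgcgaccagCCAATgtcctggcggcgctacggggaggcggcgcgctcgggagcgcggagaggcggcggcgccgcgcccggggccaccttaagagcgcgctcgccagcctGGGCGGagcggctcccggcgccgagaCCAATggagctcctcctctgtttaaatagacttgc

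These bases held 27 CpG, more than 95.5% of RefSeq promoters, whereas those before the upstream Cdkn1a start site held 2, more than 23.4%. Their GC content was 70.0% and 56.0%.

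The distal region of Cdkn1b with the highest rank, chr6:134928071-134929136, was centred 8202 bp downstream of the Cdkn1b start site, over the start of Lockd. Lockd is a long non-coding RNA gene whose locus is known to act as an enhancer of Cdkn1b in other cells. Percentiles there were 98.3, 95.7 and 94.6 in PROLIF and 95.3, 91.2 and 94.4 in DIFF with overlap of the states. All 3 PROLIF libraries and DIFF replicates 1 and 4 ranked this region above the promoter of Cdkn1b itself. The other 4 regions of the window were found in at most 3 libraries.

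The protein-coding genes whose promoter percentiles were nearest to those of Cdkn1b over the 6 libraries were Acvr1 and Upp2, which gave the same values in every library, at a mean absolute difference of 0.216 points, and Phc1 at 0.475. For Cdkn1a the nearest were Phf21b at 1.73, Anapc7 at 2.32 and Rhbdf1 at 2.76 points.

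Cdkn1c (ENSMUSG00000037664.13, minus strand, chr7:143458339-143461050) encodes p57, and it is an imprinted gene expressed from the maternal copy. Its start site region, chr7:143460806-143461486, had the largest SD of the 7 promoters in either state. Percentiles were 74.6, 35.3 and 45.7 in PROLIF and 56.1, 56.8 and 83.2 in DIFF. The difference of 13.5 points was smaller than the spread in PROLIF and changed sign between the sets of data numbers, -4.01 in the low and 34.7 in the high set. The highest value was that of DIFF replicate 4, the deepest library. Of its 7 regions only this one was found in all 6 libraries. The region chr7:143437791-143438763, 22773 bp downstream, had percentiles of 59.5, 47.7 and 12.5 in PROLIF and of 30.6 in DIFF replicate 2, and no peak in the other DIFF libraries.

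Cdkn2a (ENSMUSG00000044303.6, minus strand, chr4:89274471-89294653) encodes a pair of unrelated proteins from separate first exons. The upstream start site at 89294653 gives p19ARF, which frees p53 by binding MDM2, and the downstream one at 89282192 gives p16INK4a, which inhibits CDK4 and CDK6. The start sites differed widely in accessibility.

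At the Arf start site, percentiles were 99.1, 96.8 and 97.4 in PROLIF and 98.6, 99.1 and 98.7 in DIFF, with fold enrichments between 11.2 and 15.5. The region, chr4:89294162-89295805, spanned 1644 bp. Its peaks were 1615, 1561 and 1470 bp wide in PROLIF and 1102, 1125 and 1328 bp wide in DIFF, so the widths of the states did not overlap while the ranks did. Of the 17 shared member regions, this was the 1 with more bases covered in every PROLIF library (9.35% of all shared regions), and 2 had more in every DIFF library (11.0%), the Trp53cor1 region above and the start site region of Cdkn2c. Width was examined after the values were seen. Ranked by fold enrichment instead of −log10 p, the Cdkn2a promoter was higher in every DIFF library, by 4.30 points, and that of Cdkn1b lower in every DIFF library, a difference of -2.39 points.

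At the Ink4a start site, peaks within 1 kb were found in PROLIF replicate 1 and in all 3 DIFF libraries. Percentiles were 63.7 in PROLIF replicate 1 and 70.9, 11.7 and 29.7 in DIFF replicates 1, 2 and 4. The strongest values, of 37 and 41 reads, came from replicate 1 of each state. The start site itself was covered in replicate 1 of each state. The peak of DIFF replicate 4 lay just downstream, with its summit of 23 reads at position 124, and that of DIFF replicate 2 at chr4:89281478-89281753, with its summit of 13 reads at position 591.

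Both Cdkn2a start sites are shown with the 200 bases before them, at chr4:89294654-89294853 for Arf and chr4:89282193-89282392 for Ink4a, read from GRCm38 on the minus strand, 5′ to 3′. They are printed because the start sites of 1 gene differed in rank, with the Ink4a site below the Arf site in every library. Capitals mark GGGCGG and an E2F motif (TTTGGCGC, TTTCCCGC, TTTGCCGC or TTTCGCGC), searched on both strands.

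Cdkn2a Arf start site: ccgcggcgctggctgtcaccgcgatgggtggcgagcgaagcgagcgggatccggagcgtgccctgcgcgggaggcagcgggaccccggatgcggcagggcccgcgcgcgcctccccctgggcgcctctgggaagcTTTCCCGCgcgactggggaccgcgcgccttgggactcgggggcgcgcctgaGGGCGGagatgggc

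Cdkn2a Ink4a start site: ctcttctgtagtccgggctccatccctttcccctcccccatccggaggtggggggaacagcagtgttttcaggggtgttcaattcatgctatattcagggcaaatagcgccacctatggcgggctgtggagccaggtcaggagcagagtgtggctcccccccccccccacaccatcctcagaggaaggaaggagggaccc

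The Arf bases held 31 CpG at a GC content of 78.5%, and the Ink4a bases 4 CpG at 61%. An E2F motif was found in 1.58% of RefSeq promoters over the same stretch, and no motif of the fixed list was found before the Ink4a start site. The distal Cdkn2a region with the highest rank was intronic, at chr4:89286674-89287036 between the start sites. It was found in all 6 libraries at percentiles 79.5, 76.5 and 52.5 in PROLIF and 78.7, 73.0 and 79.1 in DIFF, higher than the Ink4a start site in every library but with overlap of the states.

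**Figure D4:**
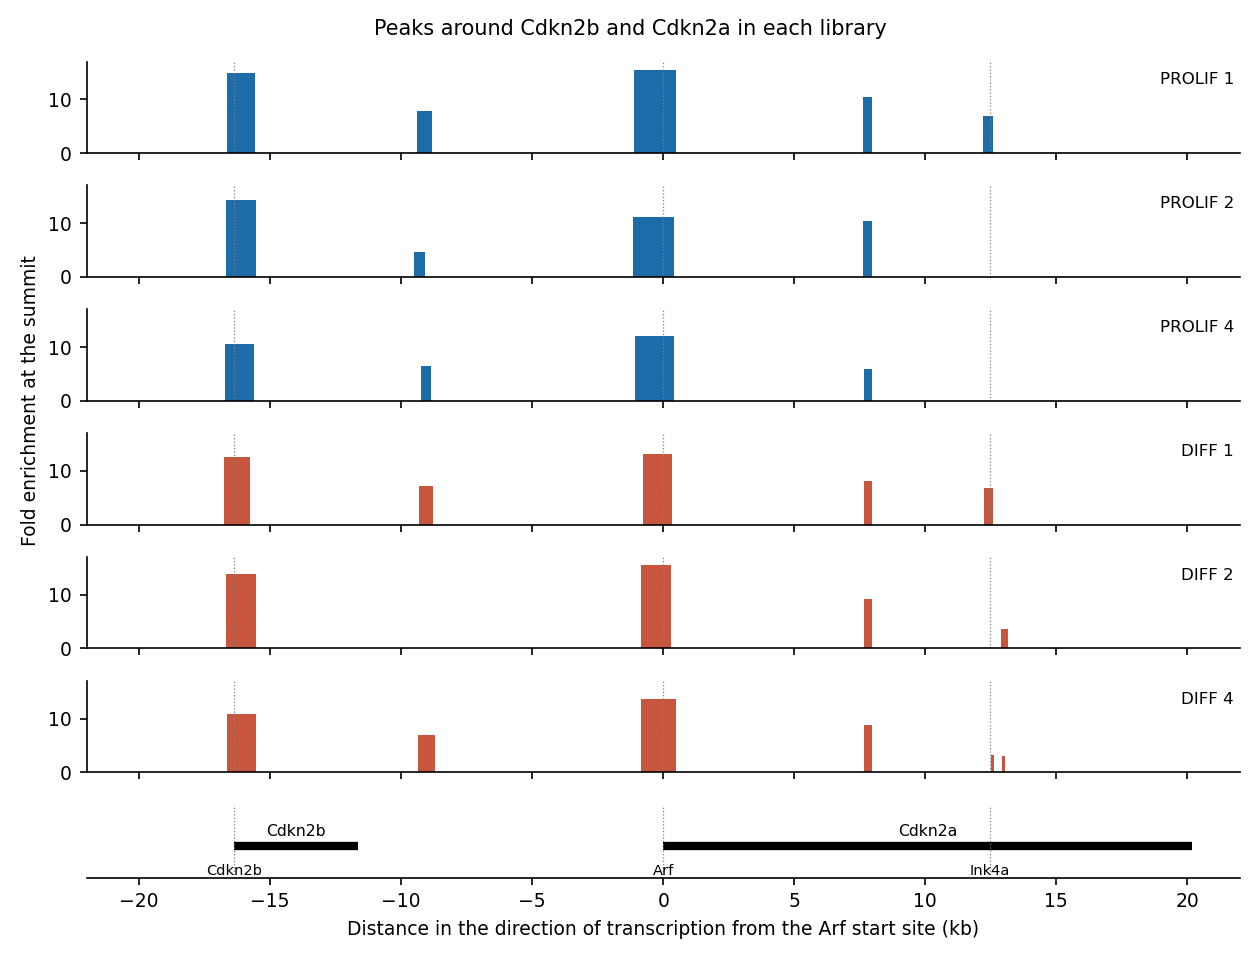
Best peak of each region (bars, drawn at their width) by distance in kb from the Arf start site in the direction of transcription (x axis) and fold enrichment at the summit (y axis) in each library, with gene bodies below and dotted lines at the Cdkn2b, Arf and Ink4a start sites. Tall bars stand at the Cdkn2b and Arf start sites in all 6 libraries, and low or no bars at the Ink4a start site.

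Cdkn2b (ENSMUSG00000073802.5, minus strand, chr4:89306299-89311039) encodes p15INK4b, an inhibitor of CDK4 and CDK6 induced by TGF-beta. Its start site region, chr4:89310188-89311402, ranked at 96.1, 97.7 and 90.0 in PROLIF and 95.6, 95.9 and 92.2 in DIFF, a difference of -0.0945 points whose sign changed when PROLIF replicate 1, PROLIF replicate 2 or DIFF replicate 4 was left out, at 0.654, 1.46 and 1.1. In both states replicate 4 was the lowest. The intergenic region chr4:89303373-89304148, between Cdkn2b and Cdkn2a, had percentiles of 61.9, 33.7 and 57.4 in PROLIF and of 66.9 and 70.1 in DIFF replicates 1 and 4, and no peak in DIFF replicate 2.

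Cdkn2c (ENSMUSG00000028551.14, minus strand, chr4:109660876-109667189) encodes p18INK4c. A single region of 2120 bp, chr4:109665199-109667318, covered both its start sites. Percentiles were 95, 92.7 and 94.8 in PROLIF and 94.5, 87.4 and 93.3 in DIFF, where the states overlapped. Peaks covered 1873, 1931 and 1703 bp of it in PROLIF and 2110, 2020 and 1982 bp in DIFF. In 5 libraries the strongest summit lay between 319 and 361 bp downstream of the upstream start site, and in DIFF replicate 2 it lay at 1824 bp, next to the downstream start site. A short region in an exon of Cdkn2c, chr4:109661238-109661447, had peaks in PROLIF replicates 1 and 2 only, at percentiles 29.6 and 21.9. The best distal region, chr4:109676081-109677410 at the start of Faf1, stayed between 92.3 and 94.1 in all libraries.

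Cdkn2d (ENSMUSG00000096472.2, minus strand, chr9:21288410-21291407) had the highest-ranked promoter of the group. It varied least in percentile, close to the top of the scale where ranks can hardly move. Its −log10 p ran from 119 to 298 and its fold enrichment from 10.3 to 13.5. Its region, chr9:21290880-21291781, ranked at 99.3, 98.4 and 98.8 in PROLIF and 99.2, 99.3 and 99.5 in DIFF, a difference of 0.477 points (exact permutation p = 0.300, adjusted p = 0.520). The window held 1 other region, chr9:21287614-21288271 at the start of Kri1, with percentiles from 75.6 to 87.7 that were highest in DIFF replicate 4. With 4.65 regions per 100 kb this was the sparsest of the 7 windows.

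**Figure D5:**
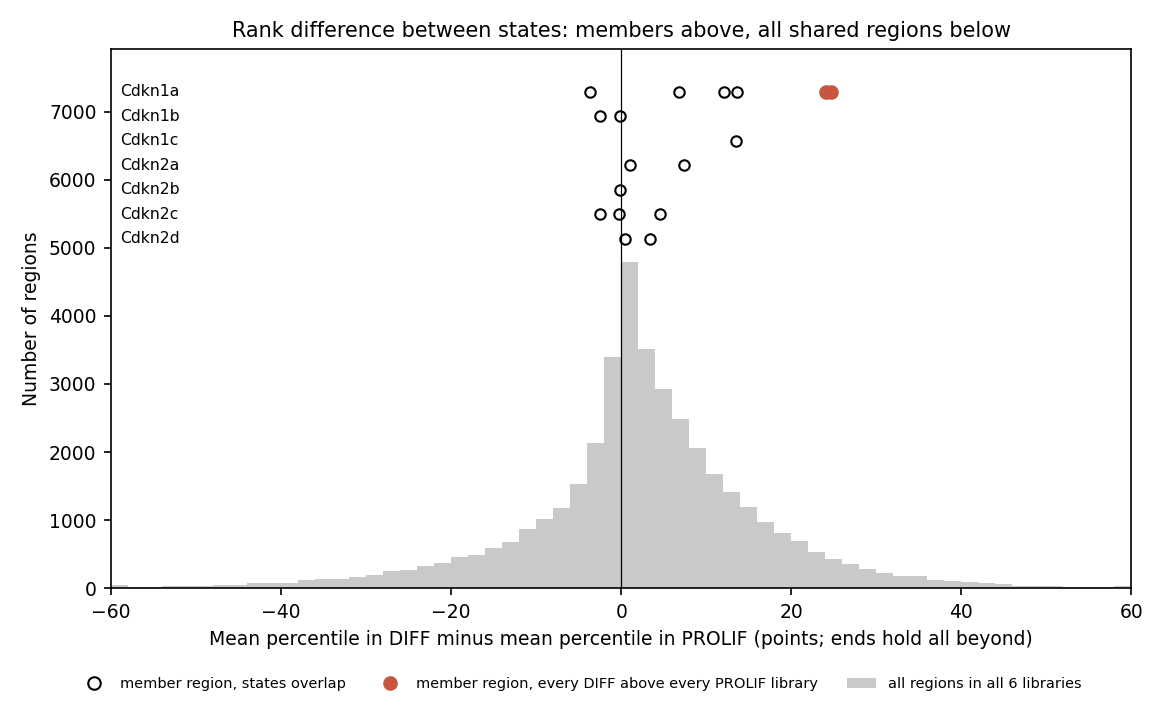
Difference in mean percentile, DIFF minus PROLIF, in points (x axis) for the 17 member regions found in all 6 libraries (points, 1 row per gene) above the number of regions (y axis, bars of 2 points) among all 40102 shared regions. Filled points mark the 2 Cdkn1a regions, at 24.1 and 24.7 points, where every DIFF library ranked above every PROLIF library.

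Motifs near the summits of the 39 regions were compared with those of all regions as shares, without a test. GC boxes were found in 14 member regions (35.9%), against 12.7% of all regions and 26.1% of regions in all 6 libraries. The E-boxes CAGCTG and CAGATG were each found in 4 (10.3%), against 19.6% and 17.3% of all regions. SOX motifs (ACAAAG or ACAATG) were found in 4 (10.3%), against 29.1%. CCAAT was found in 10 (25.6%), against 25.5%. A single decamer of the p53 motif was found in 7 (17.9%), against 7.07%. A CTCF motif, searched by name, was found in 4 (10.3%), against 5.63%, and 3 of these lay upstream of Cdkn1c. E2F motifs were found in 1 (2.56%), against 0.808%, the Arf start site region. TTGGCA was found in 4 (10.3%), against 18.3%, and the forkhead motif GTAAACA in 1 (2.56%), against 2.73%. The TEAD motif ACATTCCA and the NRF1 motif were found in none, against 1.54% and 1.08%.

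The proteins that the inhibitors act on or with were examined by a list of 22 genes. Promoter peaks in all 6 libraries were found for 22 of 22, against 64.4% of all protein-coding genes. Ranks were higher in every PROLIF library for 1 of 22, read against 4.79% of all promoters. This was Cdk4, a target of the Ink4 proteins, at 96.7, 91.4 and 93.2 in PROLIF and 88.9, 91.3 and 91.1 in DIFF. The nearest libraries of the states were 91.4 and 91.3. Ranks were higher in every DIFF library for 6 of 22, read against 26.0% of all promoters. Both counts lay near the share over all promoters, so by this measure the list did not differ from promoters at large. The 6 genes were Cdk6, Ccne1 (cyclin E1), Rbl1 (p107, of the retinoblastoma family), Skp2 and Cks1b (which together mark p27 for degradation) and Trp53 (p53). Trp53 had percentiles of 77.7, 72.6 and 79.4 in PROLIF and 85.7, 83.6 and 86.0 in DIFF, a difference of 8.55 points (exact permutation p = 0.10, adjusted p = 0.325). Rbl1 had the largest difference of the 6, 16.1 points, with 50.4 ± 9.36 in PROLIF and 66.5 ± 5.93 in DIFF (SD, n = 3). Cks1b stood at 92.3, 91.5 and 90.3 in PROLIF and at 96.9, 96.4 and 97.2 in DIFF. Mdm2, the ubiquitin ligase of p53, ranked at 99.7 in PROLIF replicate 1 and 99.9 in DIFF replicate 1 and between 89.9 and 97.6 in the other 4 libraries. Mdm2 lies on chromosome 10, as does the marker Fabp7. The Fabp7 promoter ranked at 98.7 and 99.3 in replicate 1 of PROLIF and DIFF and between 89.2 and 94.1 in the other 4 libraries. Cdk1, Cdk2 and Cdk4, on the same chromosome, were not highest in DIFF replicate 1. Whether the Mdm2 values follow from its chromosome region was not tested. The remaining 15 genes overlapped between the states.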

How the data were processed

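ATAC-seq libraries of Srr2 del/del cultures were analysed, 3 PROLIF and 3 DIFF, grouped by the state and replicate number in the labels. The authors clipped and trimmed reads with Cutadapt and Trimmomatic, mapped them to GRCm38 (mm10) with Bowtie2 and ran MACS2 on every library by itself for narrow peaks (no model, FDR 0.05); versions, transposase shift and blacklist are not given in the sources used here, and each can move peak edges. The deposited lists give for each peak a fold enrichment, a ratio to the local background of its library, and −log10 p and q values against that background. The series text gives 3 DIV for proliferating cultures where the sample labels give 2 DIV, and the labels were followed.

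Peaks on chromosomes 1 to 19, X and Y were used, which left out between 150 and 311 peaks per list. Background and summit pileups were recovered by solving the fold and p of each peak for the reads behind it, since read totals were not used here. Pileups came back whole, within 0.05 reads, for at least 99.99% of peaks, and the pileup of the Cdkn2d peak in DIFF replicate 4 could not be resolved. Start sites came from GENCODE M21. Among RefSeq promoters, 6 of 7 members matched. Percentiles of the states were tested by exact permutation, two-sided, over all 20 assignments of labels, with Benjamini-Hochberg adjustment over all shared regions or promoters. The scripts were tested on simulated data. The members and lists were chosen with earlier results of these data known.

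Regions named are those of 1 state only, those ranked apart, the best-ranked of each member and its best distal one. Others (the second Cdkn1a exon, the Cdkn2c exon, and the Cdkn1a downstream start site and intergenic region) were chosen after their values were seen. Tables were handled in pandas 2.3.3 and NumPy 2.4.6 under Python 3.11.15, tests in SciPy 1.17.1, sequences with samtools 1.23.1 through pysam 0.24.0, and plots in matplotlib 3.10.9.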

Additional observations from a re-analysis of the deposited data

How the results depend on the processing

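Alternatives were q of at most 0.01 or 0.001, lists cut to the length of the shortest (59792 peaks), the strongest 20000 peaks, flanks of 10 or 50 kb, peaks counted only when covering at least 50% of the region, ranks by fold enrichment, promoters of 1 kb, each library left out and the replicate block. A q of 0.01 or 0.001 left every count of regions and promoters as it was and every difference with the same sign. With lists of equal length, 2 shared regions ranked higher in every PROLIF library. In that setting 1 promoter ranked apart, that of Cdkn1a, higher in DIFF by 14.5 points. Among the strongest 20000 peaks, the difference in peaks was 1.67 (DIFF minus PROLIF), PROLIF-only regions numbered 0, regions in all 6 libraries 9, regions ranked higher in PROLIF 2 and in DIFF 0, and 5 of the 7 members kept a promoter peak in all 6 libraries. With a flank of 50 kb the difference in peaks was 0.667, with 2 DIFF-only regions, 31 in all libraries, 2 ranked higher in PROLIF and 5 in DIFF, and with 10 kb, 1 ranked higher in DIFF. With a cover of at least 50% there were 0 PROLIF-only regions, 1 DIFF-only region and 11 in all libraries, of which 0 ranked higher in DIFF. Ranked by fold enrichment, 1 region was higher in PROLIF and 2 promoters ranked apart, those of Cdkn1b and Cdkn2a. The cause of these changes was not tested. Shares over all regions or promoters were not computed for the q limits, equal length, the strongest 20000 peaks, the 50% cover or ranks by fold enrichment. The member counts in those settings therefore lack a background.

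The paper describes its ATAC-seq as paired, on the same cultures, in PROLIF and DIFF, and does not link replicate numbers to cultures. No label says that equal replicate numbers mark 1 culture in both states, so a replicate block over same-numbered libraries assumes it. The main tests treat the 6 libraries as independent. Deviations of percentiles from the state mean correlated at 0.0549, 0.153 and 0.0123 within the numbers 1, 2 and 4 (39088 autosomal regions) and at -0.112 to 0.0614 between numbers, and not every library correlated best with its own number. With the replicate block, 4 member regions had a peak in PROLIF and not in DIFF in at least 2 pairs and the reverse in none (6.30% of all regions), and 2 the opposite (11.1%). Ranks were lower in DIFF in all 3 pairs at 2 shared regions (16.1% of all) and higher at 3 (30.1%). The promoter of 1 member, Cdkn2c, was lower in DIFF in all 3 pairs (7.85%) and none higher (37.9%). The smallest p that sign flips over 3 pairs allow is 0.25.

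Leaving out 1 library gave differences in peaks from -4.00 to 0.50 (positive without PROLIF replicate 1, and at 0.333 without DIFF replicate 2) and in covered length from 0.00217 to 1.66 kb, 1 to 3 PROLIF-only and 0 to 1 DIFF-only regions, 17 to 19 regions in all libraries, 0 to 2 ranked higher in PROLIF and 2 to 6 in DIFF, and 0 to 4 promoters ranked apart. Promoter differences of Cdkn1b (-0.622 to 0.354 points) and Cdkn2b (-2.39 to 1.46) changed sign, at 0.354 and 0.0358 for Cdkn1b and at 0.654, 1.46 and 1.1 for Cdkn2b. In all other cases the promoter difference of a member kept its direction. Depth limits what a missing peak can show: peaks at percentile 1 held 10 to 12 reads at the summit, or 16 in DIFF replicate 4.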
